A study of Mus musculus with 3 samples.

Results

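A set of 8 genes that mark lymphocyte traffic to the gut was described in mouse mesenteric lymph node (MLN), the node that drains the intestine. They are the integrin chains Itga4, Itgb7, Itgae and Itgb1, the chemoattractant receptors Ccr9, Gpr15 and Ccr6, and the tetraspanin Cd9. The rows with these 8 symbols were taken from the 32285 genes of the matrices, and all 8 were present in every library. Single-cell RNA sequencing had been carried out on 3 libraries, 1 for each feeding group, and each library held the pooled node cells of 6 animals that were fed orally for 4 weeks. The groups received 5 mM citrate buffer (the library titled as the untreated control), 1 µg free ovalbumin (free OVA) or 1 µg LysoPS-OVA, ovalbumin given with lyso-phosphatidylserine. Strain, sex and age are not given in the sources used here. Cells were freed by enzyme digestion, cleared of dead cells and loaded at 10000 for each library. With 1 library per group there was no replicate, so no difference could be tested and the intervals below cover counting error only.

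Homing to the gut depends on pairs of integrin chains and on chemoattractant receptors. The alpha 4 chain (Itga4) pairs with beta 7 (Itgb7) to bind MAdCAM-1 on gut venules, and with beta 1 (Itgb1) to bind VCAM-1 and fibronectin, while the alpha E chain (Itgae, CD103) pairs with beta 7 and holds cells at E-cadherin on epithelium. CCR9 follows the small intestinal chemokine CCL25, GPR15 guides T cells to the colon, CCR6 follows CCL20 toward Peyer's patches, and CD9 is a membrane protein that clusters with integrins. In the MLN, dendritic cells arriving from the gut supply retinoic acid, which is known to raise alpha 4 beta 7 and CCR9 on the lymphocytes they prime.

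The deposited barcodes numbered 28927 (citrate buffer), 28660 (free OVA) and 20873 (LysoPS-OVA), each above the 10000 cells loaded. After barcodes with under 300 genes, over 10% mitochondrial UMIs (unique molecular identifiers, counted transcripts) or a doublet call were removed, 21991 barcodes stayed from citrate buffer, 21948 from free OVA and 16026 from LysoPS-OVA. Median UMIs per kept barcode were 2644, 1815 and 4134 in that order, which is kept for every run of 3 values below. The libraries differed in quality measures. Doublet calls took 16.5%, 5.93% and 7.49% of the barcodes that passed both limits, kept barcodes with under 10% ribosomal protein UMIs were 22.3%, 9.10% and 10.8%, and kept barcodes with under 0.5% Malat1 (a nuclear RNA) were 27.8%, 51.6% and 21.6%. Between 166 and 194 barcode sequences were shared by each pair of libraries. The labels call the cells intestinal, but 8 intestinal epithelial markers summed to only 5.88, 8.14 and 5.86 CPM (a gene's UMIs scaled to a fixed total), and no kept barcode carried 3 or more of them. Barcodes were sorted into gates by markers fixed for each lineage (at least 3 markers detected, 4 for plasma cells). Gate names stand for these marker rules. The migratory dendritic cell (DC) gate is named for dendritic cells that arrive from the gut, an origin that its markers do not show. In this gate 87.0%, 92.4% and 88.7% of barcodes had under 0.5% Malat1, against at most 1.55% in the naive CD4 T gate. In all, 13 gates held at least 50 barcodes in every library and were compared, among them 9 with a cell type name. UMIs of a gate were summed within a library and expressed as CPM, scaled to that gate's UMIs. In follicular B barcodes, the 8 T cell markers summed to 312 CPM under citrate buffer, 102 under free OVA and 159 under LysoPS-OVA. The gate rule left out barcodes in which the share of T cell markers detected was high beside that of B cell markers. These sums are therefore limited by the rule and do not measure all T cell transcripts that reached B cell barcodes.

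Itga4 had its highest levels among the named gates in effector-memory and regulatory T barcodes. Its gene lies at 2:79255426-79333123 on the plus strand (GRCm38, GENCODE M21). In effector-memory CD4 T barcodes it stood at 807 CPM under citrate buffer, 782 under free OVA and 892 under LysoPS-OVA, and in regulatory T barcodes at 671, 668 and 587 CPM. Naive CD4 T barcodes held 306, 268 and 266 CPM, so both gates lay above the naive gate in all 3 libraries without overlap of intervals. The effector-memory CD4 T name stands for its marker rule only. Of its 10 leading genes, Ctla4, Ikzf2 and Izumo1r are regulatory T markers, and only Maf is a marker of its own list. The 8 regulatory T markers summed to 2086, 1888 and 2148 CPM there, against 408, 299 and 312 CPM in naive CD4 T and 4646, 4041 and 4425 CPM in regulatory T barcodes. By the rule, a barcode with regulatory T markers but no Foxp3 UMI can fall in this gate, so the gates are not shown to be separate cell types. In germinal centre B barcodes the level was lowest of the 9 named gates, at 107, 93.9 and 87.4 CPM, against 320, 315 and 329 CPM in follicular B barcodes.

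Itgb7 followed T cells more than other cells. The gene sits at 15:102215995-102231944 on the minus strand. Naive CD4 T barcodes held 232, 226 and 225 CPM (95% Poisson intervals 221 to 243, 214 to 238 and 216 to 235), and naive CD8 T barcodes 249, 221 and 229 CPM. Follicular B barcodes held 71.5, 96.3 and 103 CPM, germinal centre B barcodes 18.4, 12.6 and 21.5 CPM, and migratory DC barcodes 29.8, 17.1 and 18.6 CPM. Unlike Itga4, whose level in effector-memory CD4 T barcodes was above that of the naive gate, Itgb7 stood at 191, 199 and 211 CPM there, below the naive level with intervals that overlapped it. The share of barcodes with an Itgb7 UMI, after each barcode was thinned to 2000 UMIs, was 36.2%, 36.6% and 34.9% in naive CD4 T barcodes and 13%, 16.4% and 18.2% in follicular B barcodes (59.2%, 71.5% and 66.7%, and 22.5%, 36.6% and 36.1%, without thinning). Thinning left out shallower barcodes, 101, 21 and 24 in the naive CD4 T gate, 84, 7 and 10 in the naive CD8 T gate, 876, 405 and 260 in the follicular B gate and 745, 1150 and 537 in the migratory DC gate. The gate set for the background of Itgb7, fibroblasts, had 0 of 5 and 0 of 3 such barcodes under citrate buffer and free OVA and none deep enough under LysoPS-OVA, too few to set a limit.

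The sequences upstream of the alpha 4 chain and of its partner chains are shown because these genes form the pairs that the levels describe. Each is 250 bases ending at the base before the RefSeq start (GRCm38.p6), given 5′ to 3′ on the gene's strand. Capitals mark ACCACA, the reverse complement of TGTGGT, a core read by RUNX factors. The hexamer AGGTCA, known from retinoic acid response elements, was searched on both strands as well and was not in these 3 windows. Among 32851 promoters of the same length, 14.0% held TGTGGT and 14.0% held AGGTCA on either strand, so a match is only a description.
Itga4 at chr2:79255176-79255425, plus strand: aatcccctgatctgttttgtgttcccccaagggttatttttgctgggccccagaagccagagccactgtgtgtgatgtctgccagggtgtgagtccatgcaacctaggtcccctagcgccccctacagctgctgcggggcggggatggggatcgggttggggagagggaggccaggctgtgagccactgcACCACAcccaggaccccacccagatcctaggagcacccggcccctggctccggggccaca
Itgb7 at chr15:102231936-102232185, minus strand: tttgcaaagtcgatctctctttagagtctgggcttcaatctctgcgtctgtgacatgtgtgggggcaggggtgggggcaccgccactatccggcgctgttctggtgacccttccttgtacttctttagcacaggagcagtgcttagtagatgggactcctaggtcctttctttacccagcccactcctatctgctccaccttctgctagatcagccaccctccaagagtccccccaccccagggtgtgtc
Itgb1 at chr8:128685404-128685653, plus strand: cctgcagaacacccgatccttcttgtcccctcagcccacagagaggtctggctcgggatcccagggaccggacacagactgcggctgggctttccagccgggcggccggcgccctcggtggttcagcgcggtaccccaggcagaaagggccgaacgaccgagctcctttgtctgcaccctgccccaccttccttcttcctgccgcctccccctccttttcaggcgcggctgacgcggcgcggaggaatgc

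In single barcodes, Itga4 and Itgb7 were found together about as often as their separate shares give. Thinned to 2000 UMIs, both were found in 234 of 1601, 139 of 980 and 236 of 1846 naive CD4 T barcodes, which was 1.03, 1.02 and 1.01 times the number given by the product of the shares. In follicular B barcodes the ratios were 1.05 (0.93 to 1.19), 1.13 (1.02 to 1.26) and 1.11 (1.01 to 1.21), so 2 of the 3 intervals lay just above 1. Thinned to 1000 UMIs they were 1.09 (0.89 to 1.31), 1.01 (0.82 to 1.22) and 1.05 (0.90 to 1.22), and every interval held 1. In migratory DC barcodes, Itga4 and Itgb1 were found together 1.26, 1.24 and 1.24 times as often as the product gives, and only the free OVA interval (1.02 to 1.49) left out 1. At 1000 UMIs these ratios were 1.01, 1.09 and 1.53, and the free OVA interval (0.85 to 1.39) held 1 as well. At this depth many barcodes of a gate show no UMI of either chain, so a pair missed in a barcode is not shown to be absent from the cell.

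**Figure D1:**
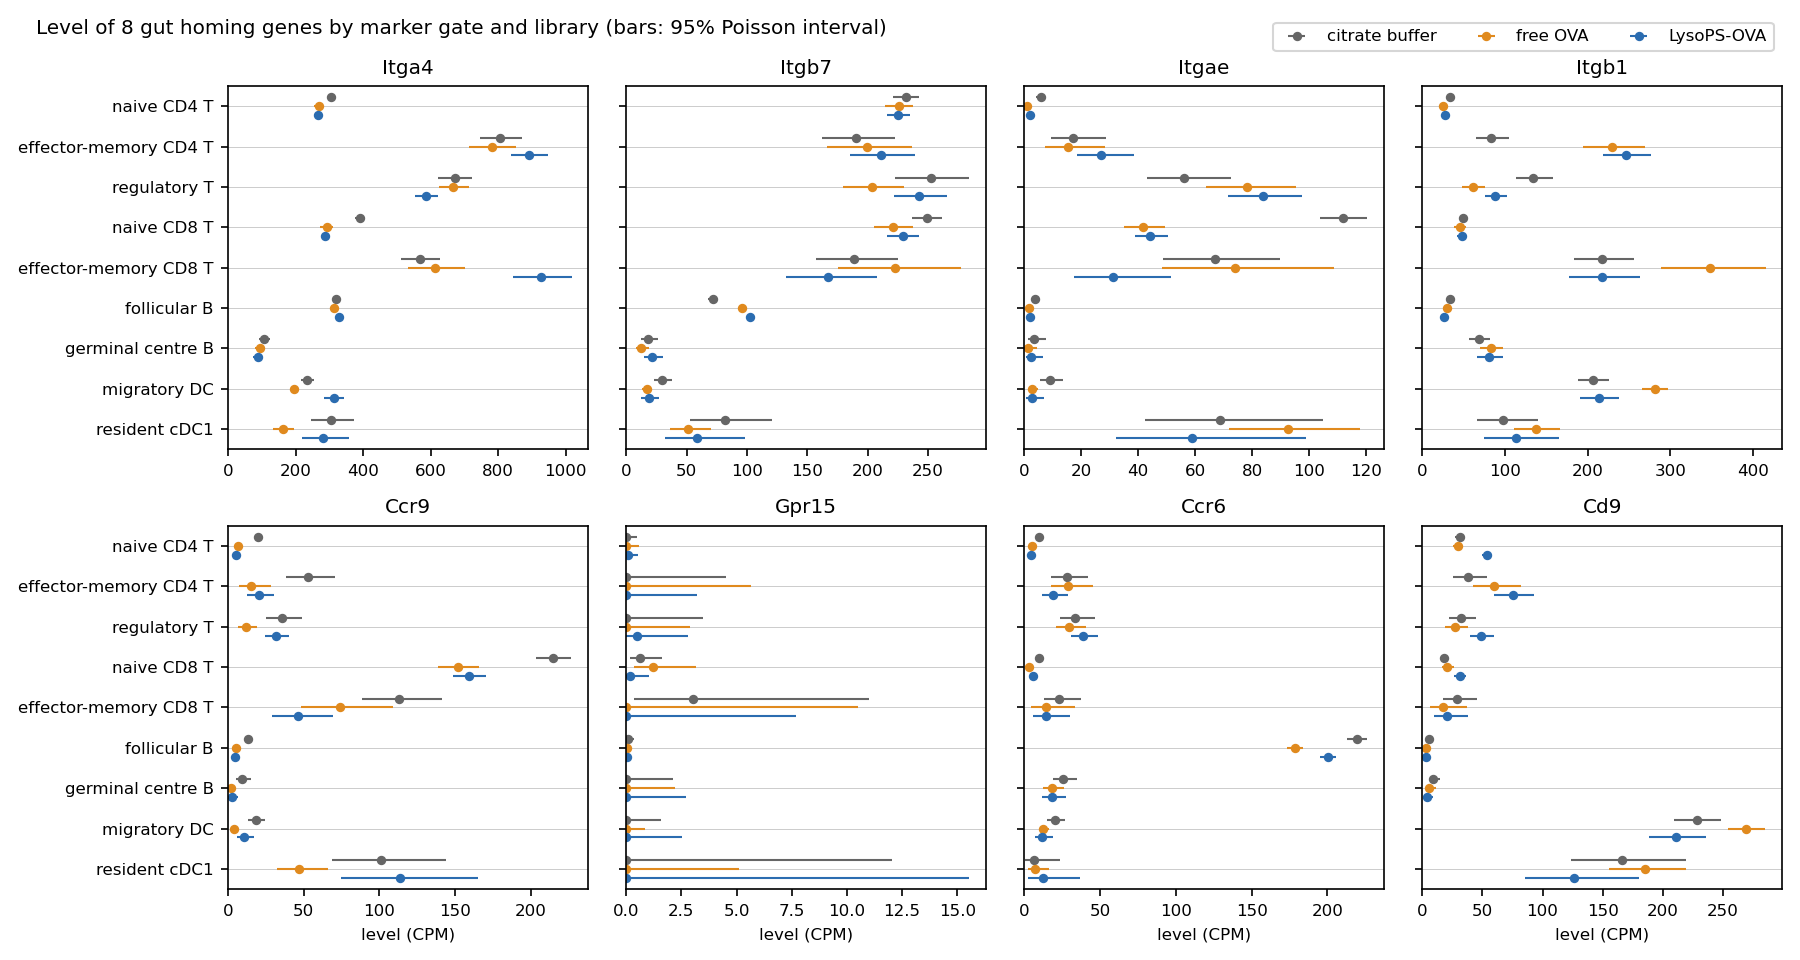
Level of the 8 genes (CPM, horizontal axes, each on its own scale) in 9 marker gates (vertical axis), with 1 point per library and bars for the 95% Poisson interval. Itga4 peaked in effector-memory and regulatory T gates, Itgb7 in T cell gates, Ccr6 in follicular B barcodes (219, 178 and 201 CPM) and Cd9 in dendritic cell gates, while Gpr15 stayed near 0 everywhere.

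Itgae, the alpha E chain, had its highest levels in CD8 T, regulatory T and resident cDC1 gates. The last are the cross-presenting dendritic cells of the node. The gene is located at 11:73090583-73147446 on the plus strand. Naive CD8 T barcodes held 112 CPM (104 to 120) under citrate buffer, 41.8 (35.1 to 49.5) under free OVA and 44.3 (38.8 to 50.3) under LysoPS-OVA. The citrate buffer library was thus well above both ovalbumin libraries, which overlapped each other. Regulatory T barcodes showed another order by point value, with 56.2 (42.9 to 72.4), 78.3 (63.7 to 95.2) and 83.8 CPM (71.6 to 97.4), and the intervals overlapped. Resident cDC1 barcodes held 68.6, 92.7 and 58.9 CPM, also with overlapping intervals. Migratory DC barcodes, in which CD103 is known on the cells that come from the gut, held only 8.95 (5.54 to 13.7), 2.71 and 2.75 CPM. Follicular B barcodes, which should lack the gene, held 3.94 (3.12 to 4.90), 1.81 and 2.13 CPM, so migratory DC stood above them without overlap under citrate buffer alone. The follicular B gate had a median of 3583, 5430 and 4430 UMIs per barcode, and the naive CD8 T gate 4574, 6997 and 5928. The share of naive CD8 T barcodes with an Itgae UMI at 2000 UMIs was 17.6%, 6.19% and 7.15%, against 0.997%, 0.212% and 0.475% of follicular B barcodes. Without thinning the shares were 33.0%, 17.4% and 16.3% of naive CD8 T barcodes and 1.46%, 0.923% and 0.890% of follicular B barcodes. Itgae and Itgb7, the chains of 1 pair, were found together in naive CD8 T barcodes 1.04, 1.59 and 0.95 times as often as the product of their shares, and all 3 intervals held 1.

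Itgb1, the common partner of many alpha chains, was high in migratory DC and effector-memory CD8 T barcodes and, in the ovalbumin libraries, in effector-memory CD4 T barcodes. Its gene lies at 8:128685654-128733200 on the plus strand. Migratory DC barcodes held 206, 282 and 213 CPM, and effector-memory CD8 T barcodes 218, 348 and 217 CPM, so in both the free OVA library was highest. Follicular B barcodes held only 33.6, 29.6 and 26.8 CPM, and naive CD4 T barcodes 33.7, 25.5 and 27.0 CPM. In effector-memory CD4 T barcodes the levels were 83.0 CPM (64.5 to 105) under citrate buffer, 230 (195 to 270) under free OVA and 246 (218 to 276) under LysoPS-OVA. Both ovalbumin libraries were above citrate buffer there, and their intervals overlapped each other.

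Ccr9 was led by naive CD8 T barcodes among the named gates. Its gene lies at 9:123678439-123784330 on the plus strand, and it overlaps the lincRNA Gm17200 on the same strand, so reads of that stretch could be split between them. Naive CD8 T barcodes held 215 CPM (203 to 226) under citrate buffer, 152 (139 to 166) under free OVA and 159 (148 to 170) under LysoPS-OVA. Naive CD4 T barcodes held 19.8, 6.23 and 5.36 CPM and effector-memory CD4 T barcodes 52.5, 15.3 and 20.1 CPM. The citrate buffer library was the highest in 8 of the 9 named gates. Resident cDC1, with 101, 47.0 and 114 CPM on only 31, 34 and 27 UMIs, was the exception. This held also in follicular B barcodes, where the level was 13.4, 5.43 and 4.48 CPM, and in which the T cell markers given above were likewise highest under citrate buffer. Their part in the Ccr9 differences was not tested. The share of barcodes with a Ccr9 UMI at 2000 UMIs was 29.2%, 20.6% and 24.2% in naive CD8 T barcodes, against 2.53%, 1.03% and 0.987% in follicular B barcodes. Without thinning the naive CD8 T shares were 45.5%, 45.5% and 43.8% and the follicular B shares 4.70%, 2.86% and 2.04%. The naive CD8 T gate had a median of 4574, 6997 and 5928 UMIs per barcode, so the shares without thinning do not compare the libraries at equal depth. Fibroblasts, the gate set for the background of Ccr9, had 1 of 29, 1 of 11 and 0 of 6 barcodes with a UMI, too few to set a limit.

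Gpr15, the colon homing receptor, was almost not detected. The gene spans 16:58717433-58719070 on the minus strand. Kept barcodes held 16 UMIs under citrate buffer, 11 under free OVA and 7 under LysoPS-OVA in all. No effector-memory CD4 T barcode had a UMI in any library (0 of 171, 0 of 115 and 0 of 215), and in naive CD8 T barcodes there were 4, 4 and 1 UMIs. It passed the filter for comparison in no gate, and a difference between feedings was not detectable at this depth.

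Ccr6, the receptor for CCL20, was a follicular B gene in these nodes. Follicular B barcodes held 219 CPM (213 to 226) under citrate buffer, 178 (173 to 184) under free OVA and 201 (195 to 206) under LysoPS-OVA, and the 3 intervals did not overlap. Germinal centre B barcodes held 25.9, 18.5 and 18.5 CPM, which was lower than in follicular B barcodes of every library without overlap. Among T cells, regulatory T barcodes had 33.7, 29.8 and 38.9 CPM and naive CD4 T barcodes 9.85, 4.98 and 4.69 CPM. At 2000 UMIs, 31.3%, 26.9% and 30.5% of follicular B barcodes had a Ccr6 UMI, against 1.77%, 0.885% and 0.715% of naive CD8 T barcodes, the background gate (44.5%, 49.7% and 51.3%, and 4.22%, 1.96% and 3.42%, without thinning). The gene lies at 17:8236043-8257141 on the plus strand. Its first RefSeq promoter is shown because it was the only window of the 8 found for 7 of these genes that held AGGTCA, here as its reverse complement TGACCT in capitals.
Ccr6 at chr17:8235793-8236042, plus strand: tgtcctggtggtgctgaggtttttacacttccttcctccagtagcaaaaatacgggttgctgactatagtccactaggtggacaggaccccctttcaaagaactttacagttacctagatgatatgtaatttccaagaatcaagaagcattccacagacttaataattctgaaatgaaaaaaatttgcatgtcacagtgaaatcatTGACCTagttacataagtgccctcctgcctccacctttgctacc

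Cd9, the tetraspanin, was highest in the migratory DC and resident cDC1 gates among the 9 named gates. Plasmacytoid DC barcodes, 27, 11 and 13, held 0 Cd9 UMIs. Its locus is 6:125460266-125494791 on the minus strand. Migratory DC barcodes held 228 CPM under citrate buffer, 269 under free OVA and 211 under LysoPS-OVA, and resident cDC1 barcodes 166, 185 and 126 CPM. Naive CD4 T barcodes held 31.2 CPM (27.4 to 35.4), 29.6 (25.5 to 34.1) and 53.7 (49.4 to 58.4), so here LysoPS-OVA alone stood apart. Follicular B barcodes were at 5.91, 3.16 and 2.93 CPM. At 2000 UMIs, 34.3%, 37.0% and 30.6% of migratory DC barcodes and 6.68%, 6.43% and 10.6% of naive CD4 T barcodes had a Cd9 UMI, against 3.70%, 4.42% and 5.36% of naive CD8 T barcodes, the gate set as background. Without thinning these were 28.9%, 33.6% and 26.5%, then 13%, 15.1% and 24.5%, and 7.30%, 12.2% and 16.7%. The naive CD4 T shares were above the background gate in every library by point value, but the background gate was also highest under LysoPS-OVA. That gate held 17.7, 20.9 and 31.3 CPM of Cd9, more than follicular B barcodes, so it does not stand for cells that lack the gene.

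The 9 gates thus ordered each gene in its own way. Where intervals of neighbours overlapped, the order of those gates is not set: for Ccr6, follicular B stood first without overlap in all 3 libraries, while under citrate buffer regulatory T and effector-memory CD4 T barcodes, the next in order, overlapped. Genes with the most similar pattern over the 13 compared gates were found by Pearson correlation of log2(CPM + 10) averaged over the 3 libraries. They were named from 4792 genes that reached 50 CPM in a gate, for each member but Gpr15. Kept barcodes held at most 16 Gpr15 UMIs in a library, too few for a pattern. The gates share libraries and depth and number only 13, so the values are a description. For Itgb7 they were Elovl5 (0.99), Cast (0.977) and Znrf2 (0.975), and for Ccr6 Cd38 (0.967), Snx2 (0.963) and Dclk2 (0.952). For Cd9 they were Anxa5 (0.952), Mcur1 (0.950) and Itm2c (0.939), and for Itga4 Pbxip1 (0.918), Atxn1 (0.917) and Ifnar2 (0.915). For Itgb1 they were Bsg (0.865), Sod2 (0.852) and Rab8b (0.823). Itgae and Ccr9 were near each other (0.864): the genes most like Itgae were Ifngr1 (0.876), Ccr9 and Tln1 (0.785), and those most like Ccr9 were Fam241a (0.897), Itgae and Ly6c2 (0.830).

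Some smaller gates held high levels, on few barcodes. Plasmacytoid DC (pDC) barcodes numbered 27, 11 and 13, and Ccr9, a known receptor of these cells, stood at 703 CPM (517 to 935), 352 (176 to 630) and 1233 (973 to 1542) there. In free OVA and LysoPS-OVA, 5 barcodes carried all of these Ccr9 UMIs. Plasma cell barcodes, 18, 22 and 10, held Itga4 at 1482, 924 and 2345 CPM, with 87.4%, 78.0% and 98.8% of those UMIs in the 5 richest barcodes. Innate lymphoid cell (ILC) barcodes, 18, 19 and 14, held Ccr6 at 404, 697 and 451 CPM. NK barcodes, 41, 10 and 19, had Itgb1 at 805, 769 and 726 CPM. In gamma delta T barcodes, 24, 14 and 28, Ccr9 stood at 398, 143 and 211 CPM, and Itgae at 121 CPM under citrate buffer, at 0 UMIs in the 14 free OVA barcodes and at 22.8 CPM under LysoPS-OVA. These values are given without comparison, since the gates were under 50 barcodes.

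**Figure D2:**
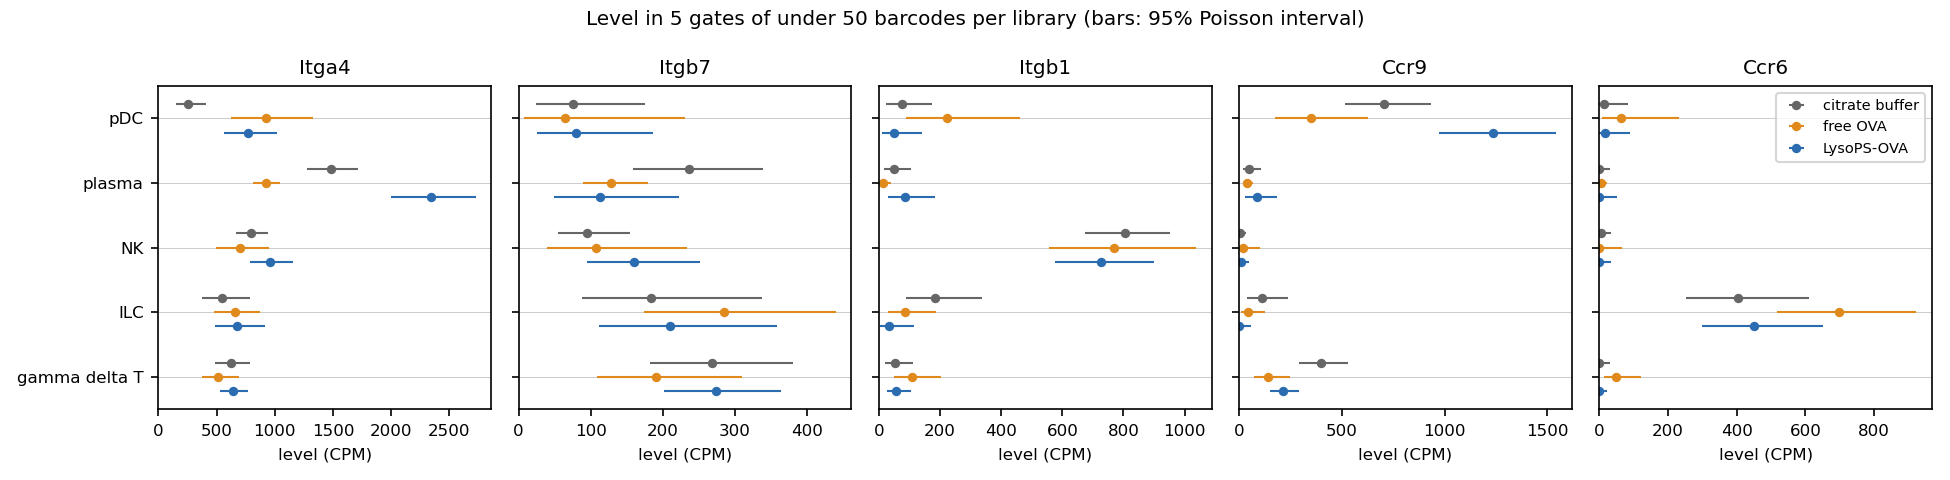
Level (CPM) of Itga4, Itgb7, Itgb1, Ccr9 and Ccr6 in 5 gates with under 50 barcodes per library, with 1 point per library and 95% Poisson bars. Ccr9 was highest in pDC barcodes and Ccr6 in ILC barcodes, with bars far wider than in the large gates.

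For the feeding comparisons, a gene was counted in a gate where the higher library had at least 30 UMIs and 20 CPM, and was called past 1.5-fold on the log2(CPM + 10) scale. That scale understates the change of low genes. The 3 comparisons share libraries pairwise and do not bear on each other as independent evidence. Of 104 pairs of member and gate, 61 passed the filter for LysoPS-OVA against citrate buffer. In these, 5 were higher (background 2.58% of all genes and gates) and 9 lower (background 4.43%), with a median log2 ratio of -0.11. For free OVA against citrate buffer 61 pairs passed, 2 higher (background 1.58%) and 13 lower (background 7.12%), with a median of -0.17. For LysoPS-OVA against free OVA 56 passed, 12 higher (background 5.38%) and 1 lower (background 1.5%), with a median of 0.08. The whole set of genes was itself shifted in some gates, for example for free OVA against citrate buffer in migratory DC (median log2 -0.26) and effector-memory CD8 T barcodes (-0.21). For LysoPS-OVA against free OVA the shifts in these gates were 0.17 and 0.16, and for LysoPS-OVA against citrate buffer the largest was -0.17, in CD8 T barcodes that were neither naive nor effector-memory.

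**Figure D3:**
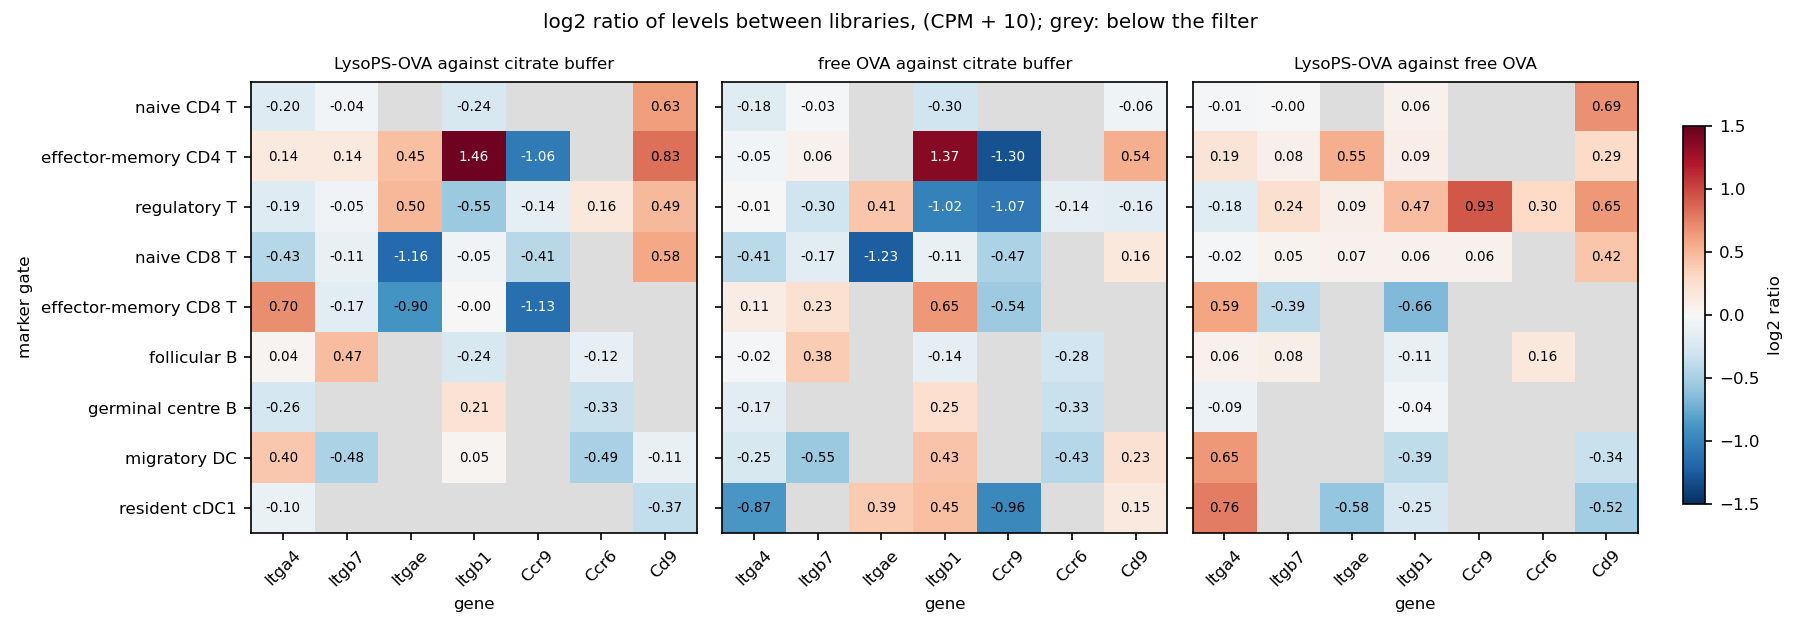
log2 ratio of levels between libraries, with 10 CPM added to both, for 7 genes (horizontal axis) in 9 gates (vertical axis) in the 3 comparisons. Grey cells were below the filter. Red stands for a higher level in the library named first. Itgb1 in effector-memory CD4 T barcodes was red against citrate buffer in both ovalbumin libraries (1.46 and 1.37), and Itgae in naive CD8 T barcodes blue (-1.16 and -1.23).

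Itgb1 in effector-memory CD4 T barcodes had the largest higher ratio of any member in a named gate against citrate buffer. From the levels given above, LysoPS-OVA was 2.96-fold citrate buffer (2.27 to 3.92) and free OVA 2.77-fold (2.07 to 3.74). In that gate 4.65% and 3.21% of all genes were past 1.5-fold higher. The UMIs lay in few barcodes: the 5 richest held 42.6% under citrate buffer, 64.7% under free OVA and 28.7% under LysoPS-OVA. In free OVA 1 barcode alone held 38 of 150 UMIs. At 2000 UMIs, 11.9% (7.22 to 18.2), 19.8% (12.7 to 28.7) and 25.9% (20.2 to 32.4) of barcodes had an Itgb1 UMI (21.6%, 31.3% and 38.1% without thinning). The share under LysoPS-OVA was above citrate buffer without overlap, while that of free OVA overlapped both.

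In regulatory T barcodes Itgb1 went the other way. It stood at 134 CPM (113 to 158) under citrate buffer, 61.1 (48.3 to 76.2) under free OVA and 88.3 (75.7 to 102) under LysoPS-OVA, so citrate buffer was highest and free OVA lowest, and the free OVA and LysoPS-OVA intervals met only at their ends. Free OVA was 0.456-fold citrate buffer (0.341 to 0.605), in a gate where 4.73% of genes were lower. LysoPS-OVA was 0.659-fold (0.525 to 0.827), which on the log2 scale fell just short of the call at -0.55. In effector-memory CD8 T barcodes the free OVA level was 1.60-fold citrate buffer (1.24 to 2.05), and LysoPS-OVA was 0.624-fold free OVA (0.476 to 0.817). Only 67 barcodes made up that free OVA gate, and 5 of them held 72.1% of the Itgb1 UMIs. The 8 NK markers summed to 236, 85.5 and 271 CPM there, and their part in the Itgb1 difference was not tested.

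**Figure D4:**
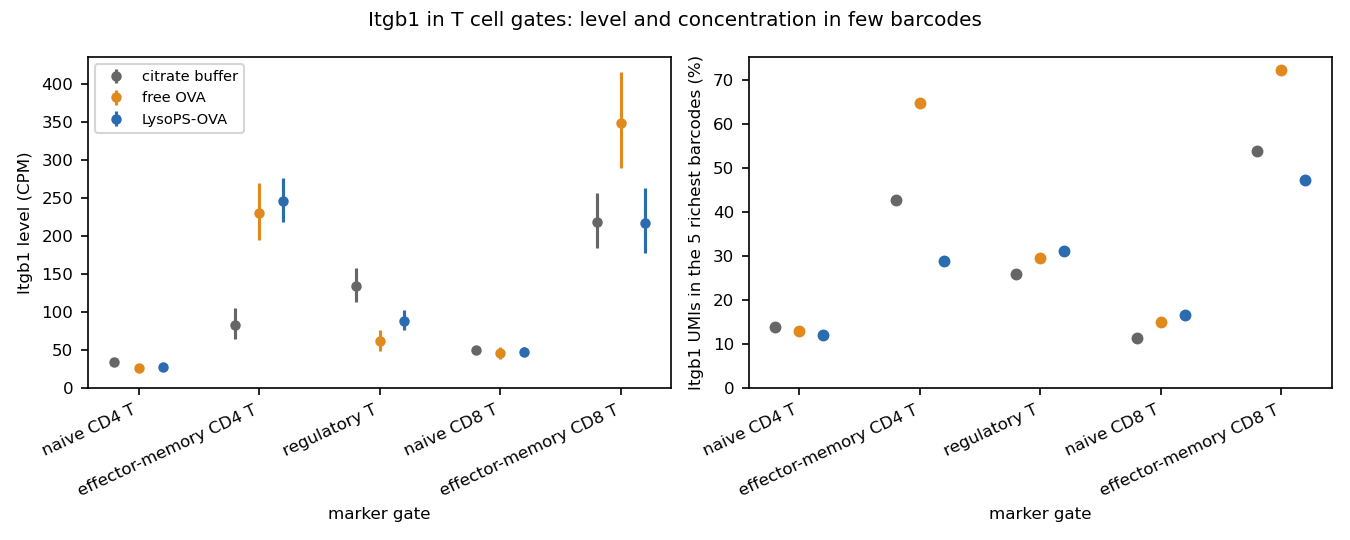
Itgb1 in 5 T cell gates. Left, level (CPM) by library with 95% Poisson bars. Right, share of Itgb1 UMIs in the 5 richest barcodes of the gate (%). The effector-memory CD4 T gate stood at 83.0, 230 and 246 CPM, and of these 5 gates effector-memory CD8 T had the most concentrated UMIs in each library.

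Itgae was lower in naive CD8 T barcodes of both ovalbumin libraries. In naive CD8 T barcodes LysoPS-OVA was 0.396-fold citrate buffer (0.341 to 0.460) and free OVA 0.374-fold (0.309 to 0.450), in a gate where 1.88% and 1.53% of genes were lower. Barcodes with low ribosomal content had more Itgae (214, 73.6 and 85.1 CPM) than the others, and citrate buffer had more of them. Among the 1124, 434 and 818 barcodes with at least 10% ribosomal UMIs, the levels were 103, 41.1 and 43.6 CPM. The part of ribosomal content in the Itgae difference was not tested. In effector-memory CD8 T barcodes the level was 67.0, 74.1 and 31.3 CPM, so free OVA was not below citrate buffer there, and LysoPS-OVA was 0.467-fold citrate buffer (0.242 to 0.856) on 44 and 15 UMIs. In regulatory T barcodes the direction differed by point value: LysoPS-OVA was 1.49-fold citrate buffer (1.10 to 2.03), which did not reach the call, and free OVA was 1.39-fold (1.0 to 1.95). These folds rest on 60, 100 and 168 UMIs, of which the 5 richest barcodes held 46.7%, 31% and 20.2%. The difference between the gates was not tested.

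**Figure D5:**
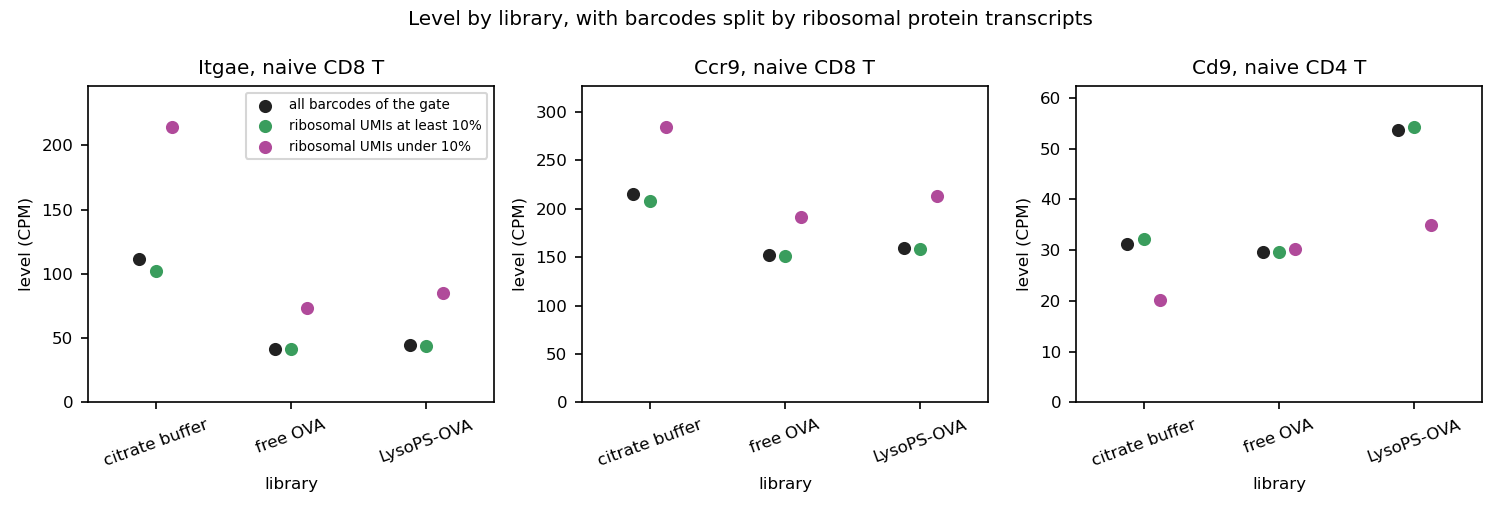
Level (CPM, vertical axis) by library of Itgae and Ccr9 in naive CD8 T barcodes and of Cd9 in naive CD4 T barcodes, for all barcodes and split at 10% ribosomal protein UMIs. Itgae stood at 103, 41.1 and 43.6 CPM among barcodes with at least 10%, and Cd9 under LysoPS-OVA stayed above the other libraries there (54.2 CPM).

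Ccr9 was lower in the ovalbumin libraries than in citrate buffer, in 4 of 6 gates that passed the filter for LysoPS-OVA and in 5 of 7 for free OVA. The share of all genes lower in the called gates was 1.93% to 11.5% for LysoPS-OVA and 2.48% to 17.8% for free OVA. In effector-memory CD4 T barcodes LysoPS-OVA was 0.382-fold citrate buffer (0.22 to 0.648) and free OVA 0.292-fold (0.131 to 0.590), on 43, 10 and 23 UMIs in the order of libraries used above. In effector-memory CD8 T barcodes LysoPS-OVA was 0.408-fold (0.241 to 0.664). Naive CD8 T barcodes, with the most UMIs, moved less and did not pass the call: 0.740-fold (0.679 to 0.807) for LysoPS-OVA and 0.708-fold (0.637 to 0.785) for free OVA. In regulatory T barcodes the levels were 35.6 CPM (25.2 to 48.9), 11.7 (6.57 to 19.4) and 31.4 (24.1 to 40.2), so only free OVA stood apart, at 0.330-fold citrate buffer. LysoPS-OVA was 2.67-fold free OVA there (1.51 to 5.06), where 2.09% of genes were higher. In resident cDC1 barcodes free OVA was likewise lowest, at 0.465-fold citrate buffer (0.277 to 0.782), in a gate where 17.8% of genes were lower. The Ccr9 UMIs of that gate, 31, 34 and 27, lay in few barcodes. The 5 richest held 74.2%, 76.5% and 88.9% of them, a spread that the interval does not cover.

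Cd9 was higher under LysoPS-OVA than in both other libraries in naive CD4 T barcodes, and than in 1 of them in effector-memory CD4 T and regulatory T barcodes. In naive CD4 T barcodes LysoPS-OVA was 1.72-fold citrate buffer (1.48 to 2.01), where 0.681% of genes were higher, and 1.82-fold free OVA (1.54 to 2.15), where 0.184% were. With low ribosomal barcodes set apart, the remaining ones held 32.3, 29.6 and 54.2 CPM. In effector-memory CD4 T barcodes the levels were 37.9, 59.8 and 75.0 CPM, and LysoPS-OVA was 1.98-fold citrate buffer (1.30 to 3.09) but did not pass the call against free OVA (1.26-fold, 0.850 to 1.88). In regulatory T barcodes they were 31.9, 27.4 and 48.9 CPM, and LysoPS-OVA was 1.78-fold free OVA (1.20 to 2.70) but did not pass the call against citrate buffer (1.53-fold, 1.03 to 2.34). Naive CD8 T barcodes, at 17.7, 20.9 and 31.3 CPM, were 1.77-fold citrate buffer (1.39 to 2.27), just under the call on the log2(CPM + 10) scale at 0.58. The 8 migratory DC markers, which mark the gate with the most Cd9, summed to 51.1, 38.8 and 21.0 CPM in naive CD4 T barcodes, and their part in the Cd9 difference was not tested.

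Itga4 was past 1.5-fold in 1 named lymphocyte gate. Effector-memory CD8 T barcodes held 568 CPM (511 to 628) under citrate buffer, 613 (534 to 701) under free OVA and 928 (844 to 1019) under LysoPS-OVA, so LysoPS-OVA alone was high. It was 1.64-fold citrate buffer (1.42 to 1.88) and 1.51-fold free OVA (1.28 to 1.79), in a gate where 7.56% and 13.5% of all genes were higher. Against free OVA the log2 ratio of 0.59 was no longer past the call with at most 5% mitochondrial UMIs (0.49) or with median-ratio scaling (0.55). The quality of this gate also set LysoPS-OVA apart: barcodes with under 0.5% Malat1 were 33.1%, 35.8% and 5.19%, and their part in the Itga4 difference was not tested. Naive CD8 T barcodes went the other way within the limit of the call, at 0.738-fold citrate buffer (0.692 to 0.787) under LysoPS-OVA. In migratory DC barcodes LysoPS-OVA was 1.59-fold free OVA (1.42 to 1.79), where 13.8% of genes were higher. Barcodes with at least 10% ribosomal UMIs held 185, 177 and 188 CPM there, and 27, 42 and 33 barcodes below that line held 981, 684 and 1369 CPM. The part of the latter in the Itga4 difference was not tested. The log2 ratio of 0.65 was no longer past the call with the mean over barcodes (0.17) or with median-ratio scaling (0.47), and was 0.75 with only barcodes that passed the Malat1 and ribosomal limits. Only 6.59% of the free OVA and 7.41% of the LysoPS-OVA barcodes of the migratory DC gate passed those limits. In resident cDC1 barcodes the levels were 304, 162 and 282 CPM. Free OVA was 0.533-fold citrate buffer there (0.403 to 0.708), in a gate where 17.8% of genes were lower. LysoPS-OVA was past the call against free OVA in this gate too, at a log2 ratio of 0.76, where 8.17% of genes were higher.

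Itgb7 and Ccr6 passed the call in no named gate. Itgb7 in migratory DC barcodes came closest, with free OVA at 0.575-fold citrate buffer (0.410 to 0.807), a log2 ratio of -0.55 at low levels. In follicular B barcodes the intervals were narrower: LysoPS-OVA was 1.44-fold citrate buffer (1.35 to 1.53) and free OVA 1.35-fold (1.26 to 1.44), from the levels of 71.5, 96.3 and 103 CPM. With low ribosomal barcodes set apart the levels were 66.5, 93.9 and 99.5 CPM. The part of ribosomal content in the Itgb7 difference was not tested.

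The other 4 compared gates hold B or T barcodes that met no finer rule. In T barcodes with neither or both of CD4 and CD8 (other T), Itgae stood at 25.8, 8.39 and 8.57 CPM and Ccr9 at 45, 20.1 and 23.7 CPM, so citrate buffer was again highest for both. CD8 T barcodes that were neither naive nor effector-memory held Itgae at 95.7, 18.8 and 50.3 CPM, on 97, 8 and 31 UMIs. Cd9 in the matching CD4 T barcodes stood at 26.4, 34.4 and 62.3 CPM, with LysoPS-OVA highest as in naive CD4 T barcodes. In B barcodes outside the follicular and germinal centre gates (other B), LysoPS-OVA was above free OVA for Itga4 (338 against 204 CPM), Itgb7 (80.9 against 45.9 CPM) and Ccr6 (145 against 75.2 CPM). In that gate 21.9% of all genes were higher and the median of all genes was shifted by 0.27 on the log2 scale, beside which these 3 ratios stand.

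Genes that act with the members were read from lists, over the 9 named gates and without genes used as gate markers. The shares over all genes set beside every list cover all 13 compared gates, so the 2 are not on the same gates. Of the gates only in the shares, other B had 21.9% of genes higher for LysoPS-OVA against free OVA. It had 12.8% lower for free OVA against citrate buffer. Among 13 other homing receptors, 54 pairs of gene and gate passed for LysoPS-OVA against citrate buffer, 10 higher and 3 lower (median log2 0.22), where 2.58% and 4.43% of all genes over the 13 compared gates were higher and lower. Gpr183 (EBI2), which guides lymphocytes by oxysterols, made up 5 of the 10, with 379 against 154 CPM in effector-memory CD4 T barcodes (2.47-fold, 2.02 to 3.03) and 469 against 273 CPM in follicular B barcodes. Cxcr5, which leads cells into follicles, was lower in effector-memory CD4 T barcodes, at 37.5 against 76.9 CPM (0.488-fold, 0.323 to 0.730). For free OVA against citrate buffer, 5 of 47 were higher and 6 lower (1.58% and 7.12% over all genes), and for LysoPS-OVA against free OVA 8 of 49 higher and 2 lower (5.38% and 1.5%).

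Genes that switch integrins on were read in the same way. Of 10 integrin activation genes, 80 pairs passed for free OVA against citrate buffer, with 0 higher and 12 lower (median log2 -0.13), where 7.12% of all genes and gates were lower. For LysoPS-OVA against citrate buffer 2 were higher and 5 lower of 80, beside 2.58% and 4.43% over all genes. For LysoPS-OVA against free OVA 7 were higher and 2 lower of 77, beside 5.38% and 1.5%. Rasgrp2, the exchange factor that loads Rap1, was at 37.6 CPM under free OVA against 90.0 CPM under citrate buffer in regulatory T barcodes (0.418-fold, 0.289 to 0.597). Fyb, an adaptor of that route, was at 23.0 against 60.2 CPM in follicular B barcodes, a gate whose T cell markers moved the same way, and their part was not tested. Of the other integrin chains, 31 pairs for LysoPS-OVA against citrate buffer held 0 higher and 1 lower, beside 2.58% and 4.43% over all genes. For free OVA against citrate buffer 1 was higher and 1 lower of 32, beside 1.58% and 7.12%. For LysoPS-OVA against free OVA 0 were higher and 2 lower of 31, beside 5.38% and 1.5%. Itgb8, a chain that activates TGF-beta, was at 23.2 CPM under citrate buffer, 70.5 under free OVA and 34.9 under LysoPS-OVA in effector-memory CD4 T barcodes. It was also among the 10 leading genes of the regulatory T gate. Of 9 other tetraspanins, 50 pairs held 2 higher and 0 lower for LysoPS-OVA against citrate buffer, beside 2.58% and 4.43% over all genes. Tspan13 in effector-memory CD8 T barcodes (119 against 54.8 CPM) was among the higher ones. For free OVA against citrate buffer 2 tetraspanin pairs were higher and 2 lower of 51, beside 1.58% and 7.12%. For LysoPS-OVA against free OVA 0 were higher and 0 lower of 47, beside 5.38% and 1.5%.

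Inducers of gut homing genes, such as retinoic acid receptors, Runx3 and Ahr, passed in 74 pairs for LysoPS-OVA against citrate buffer, with 1 higher and 4 lower (median log2 -0.02), and in 72 for free OVA against citrate buffer, with 0 higher and 6 lower. For LysoPS-OVA against free OVA 3 of 72 were higher and 0 lower. These counts lie near the shares over all genes given above. Ahr, a sensor of dietary ligands, was at 44.1 CPM under citrate buffer, 18.8 under free OVA and 23.9 under LysoPS-OVA in regulatory T barcodes. Of the members' ligands, 0 of 9 pairs were called for LysoPS-OVA against citrate buffer and 0 of 10 for LysoPS-OVA against free OVA. For free OVA against citrate buffer 1 was higher and 1 lower of 10, beside 1.58% and 7.12% over all genes. The CCR9 ligand Ccl25 was read at 33.7, 25.4 and 22.2 CPM in naive CD4 T barcodes and 27.9, 21.0 and 22.8 CPM in follicular B barcodes. Madcam1 and Vcam1 were under 5 CPM in naive CD4 T and follicular B barcodes, and Vcam1 stood at 220, 158 and 446 CPM in fibroblast barcodes, which numbered 29, 11 and 6.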

How the data were processed

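The deposited matrices give an unnormalised UMI count for each gene in each barcode. They came from Cell Ranger 7.2.0 with genome build mm10, per the submitters' processing notes, and for the annotation version and intron setting the sources used here give nothing. The 3 libraries had 20873 to 28927 barcodes and 81559237 to 96616683 UMIs. Doublets were called with Scrublet (scanpy 1.11.5) and removed. UMIs were summed per marker gate and library. Levels carry exact 95% Poisson intervals, and fold changes carry conditional binomial ones. Shares of barcodes carry exact Clopper-Pearson intervals. There is no replicate, so no test was run, and p-values are not given. PCR copies are collapsed by UMI, and intervals cover counting error only. The 8 members and the lists were chosen with earlier results of these data known. Named genes were all members, up to 4 list genes farthest from 0 per gate and comparison, and the 3 genes most like each member but Gpr15 over gates. The procedure was tested on simulated data. Alternatives were the pseudocount, the filter on low counts, doublets, mitochondrial, Malat1 and ribosomal limits, the number of gate markers, scaling, averaging over barcodes and the regulatory T gate. Ensembl identifiers of 32158 genes (99.6%) matched GENCODE M21. Figures were drawn with matplotlib 3.10.9. Intervals came from scipy 1.17.1 with numpy 2.4.6, and tables from pandas 2.3.3 under Python 3.11.15.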

Additional observations from a re-analysis of the deposited data

Results flagged for a closer look

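Itgb1 moved in opposite directions in different CD4 T gates under the same contrast. For LysoPS-OVA against citrate buffer, its log2 ratio was 1.46 in effector-memory CD4 T barcodes and -0.59 in CD4 T barcodes that could be placed in neither the naive nor the effector-memory gate. For free OVA against citrate buffer it was 1.37 in effector-memory CD4 T barcodes and -1.02 in regulatory T barcodes. The ratio of -0.59 was just past the call, in a gate where 7.41% of all genes were lower. The 5 richest barcodes of that gate held 46.7% of its 90 Itgb1 UMIs under citrate buffer and 26.6% of its 64 under LysoPS-OVA. The difference between gates was not tested, since there is 1 library per group.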

How the results depend on the processing

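Leaving out a replicate was not possible with 1 library per group. No paired analysis was possible because each group has a single library. For LysoPS-OVA against citrate buffer, the 5 higher pairs became 9 with a pseudocount of 1 CPM and 8 with the mean over barcodes, and the 9 lower became 14 with no filter, 3 with Malat1 and ribosomal limits and 5 with 4 gate markers. For LysoPS-OVA against free OVA, the 12 higher became 5 with those limits and 7 with median-ratio scaling, and the 1 lower became 2 with the pseudocount of 1, with 2 gate markers or with median-ratio scaling, 3 at 5% mitochondrial UMIs and 4 with no filter. For free OVA against citrate buffer, the 2 higher became 1 with 4 gate markers, 5 with the mean over barcodes and 4 with median-ratio scaling, and the 13 lower became 21 with no filter, 4 with the limits and 6 with 4 gate markers. Fewer pairs could be compared with the limits or with 4 gate markers. No called ratio changed sign in any alternative. Itga4 in migratory DC barcodes, LysoPS-OVA against free OVA, went from a log2 ratio of 0.65 to 0.17 with the mean over barcodes and 0.75 with the Malat1 and ribosomal limits. Those limits kept only 6.59% of the free OVA and 7.41% of the LysoPS-OVA barcodes of that gate. Depth limits Gpr15, with at most 16 UMIs in a library, and gates of few barcodes.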
